A study of Mus musculus with 9 samples.

Results

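The fast-fibre contractile genes are those whose proteins build the contractile filaments and Z-discs of fast-twitch muscle fibres. The 10 taken here were chosen by name as known fast isoforms, not by a measured value, though with earlier results of these data known. They are the fast myosin heavy chains Myh1, Myh2 and Myh4, the fast myosin light chains Mylpf and Myl1, the fast troponins Tnnt3, Tnni2 and Tnnc2, the Z-disc protein Actn3 and the fast myosin-binding protein Mybpc2. All 10 were found among the 15593 gene symbols of the deposited table. They were measured in gastrocnemius, the large calf muscle of the mouse, in 3 groups of 3 libraries of polyadenylated RNA: wildtype mice given vehicle (wildtype vehicle), mdx mice given vehicle (mdx vehicle) and mdx mice given GTx-026 under the skin at 10 mg/kg (mdx GTx-026). The mdx strain lacks dystrophin through a mutation of its gene and serves as a model for Duchenne muscular dystrophy, and the study's title concerns agonists of the androgen receptor in such models. All 3 groups carry the strain label C57BL/6, the labels used here give no age, and no wildtype mice given GTx-026 were analysed here. The labels tie no library to an animal, so a p-value here reflects only how libraries scatter, which may be technical. In whole muscle, fewer fast fibres and less RNA per fibre cannot be told apart.

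In a fibre, the myosin heavy chain is the motor, and its type sets how fast the fibre shortens. Myh2 encodes the IIA chain of oxidative fast fibres, Myh1 the IIX chain of intermediate ones and Myh4 the IIB chain of the fastest, most glycolytic fibres, which make up most of the superficial mouse gastrocnemius. Light chains stabilise the lever arm of the motor, the troponins T, I and C pass the calcium signal to the thin filament, alpha-actinin anchors thin filaments at the Z-disc, and myosin-binding protein C sits on the thick filament.

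The fast myosin genes lie next to each other on chromosome 11. In the RefSeq annotation of GRCm38.p6, Myh2 occupies chr11:67171027-67197517, Myh1 chr11:67200102-67224577 and Myh4 chr11:67237812-67260447, all on the plus strand. Between them lie 2584 bases (Myh2 to Myh1) and 13234 bases (Myh1 to Myh4). Because their transcript levels differ so widely in the libraries below, the 250 bases before each annotated start are shown here, 5′ to 3′ on the plus strand, from the RefSeq promoter table of the same build. Capitals mark a block of 20 bases common to all 3 windows and, in Myh1 and Myh4, the TATAAA nearest the start. 
Myh2, chr11:67170777-67171026: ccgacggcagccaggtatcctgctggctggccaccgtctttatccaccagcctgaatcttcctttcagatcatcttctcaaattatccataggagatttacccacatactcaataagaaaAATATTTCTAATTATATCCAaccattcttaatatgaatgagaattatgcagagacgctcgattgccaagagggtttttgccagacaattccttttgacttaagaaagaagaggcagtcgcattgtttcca
Myh1, chr11:67199852-67200101: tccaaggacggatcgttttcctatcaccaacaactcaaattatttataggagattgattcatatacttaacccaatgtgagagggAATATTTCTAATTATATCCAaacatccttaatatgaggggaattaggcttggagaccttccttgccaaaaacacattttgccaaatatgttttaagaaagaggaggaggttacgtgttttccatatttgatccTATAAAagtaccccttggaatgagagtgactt
Myh4, chr11:67237562-67237811: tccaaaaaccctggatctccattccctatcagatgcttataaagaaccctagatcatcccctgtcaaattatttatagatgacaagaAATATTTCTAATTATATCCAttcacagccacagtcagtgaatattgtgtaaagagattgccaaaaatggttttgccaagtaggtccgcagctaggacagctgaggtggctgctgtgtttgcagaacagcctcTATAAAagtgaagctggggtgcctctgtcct
The block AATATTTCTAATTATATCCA begins 130 bases before the start of Myh2, 165 before that of Myh1 and 163 before that of Myh4. The block was found as the longest run of bases common to these 3 windows, so its presence in them was fixed beforehand. Of 32851 promoter windows of that table it occurred in 3 (0.00913%), those of the 3 fast myosins. How rare other runs of 20 bases are was not tested. In global alignments of the whole windows, block included, 47.3% of positions were identical between Myh1 and Myh2. The value was 53.5% between Myh2 and Myh4 and 58.5% between Myh1 and Myh4. Searched on both strands, TATAAA, found in 12.4% of all windows, occurred at 2 places before Myh1, at 3 before Myh4 and at none before Myh2. In Myh2, however, the block lies nearer the start. Bases as far after the block as the TATAAA nearest the start in Myh1 or Myh4 lie past the annotated start of Myh2. The search ended at that start, so a TATAAA there would not have been counted. The MEF2 motif, found in 2.92% of windows, occurred once each before Myh1 and Myh4, overlapping a TATAAA in both, and not before Myh2. The serum-response CArG box (1.47% of windows) and the E-box CAGCTG (13% of windows), which is among the CANNTG matches present in 66.2% of windows, each occurred before Myh4 alone of the 3. CATTCC, present in 12.6% of windows, had 1 match each before Myh1 and Myh4. These matches describe the letters of the windows and not binding.

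The table lists reads per sequence record, scaled by the authors with a single factor per library. Records were summed per gene and expressed as CPM, reads of a gene per M (mega) listed reads, after rescaling libraries by a trimmed mean of log ratios. The reads listed per library were estimated at 25.1 M to 38.0 M, and the least read gene of the 10 in any library, Myh2 in mdx vehicle 1, rested on 5677 reads, so the number of libraries rather than depth limits the precision. The mdx vehicle library 1 stood apart: its median correlation with its own group was 0.945, against 0.959 to 0.983 in the other 8 libraries, and its scaling factor of 1.30 was the highest. For the main results that moved without it, the value without it is given as well. Transcripts of the myosin genes share sequence, and 25.4% of the 50-base words of Myh1, 26.9% of those of Myh2 and 18.9% of those of Myh4 also occur in another gene. The rule by which reads from such stretches were assigned was not stated, and part of the split between these genes is thus uncertain.

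Myh4 was the dominant myosin transcript in all 9 libraries. Its level was 49268, 72436 and 66931 CPM in wildtype vehicle libraries 1 to 3, 34067, 46169.7 and 42998 CPM in mdx vehicle and 65177, 38409 and 27874 CPM in mdx GTx-026. Each mdx vehicle library was below each wildtype library, whereas the treated libraries ran from below every mdx vehicle library to within the wildtype range. Myh1 stood at 6579, 2957 and 5884 CPM in wildtype vehicle, 1135, 4874 and 6354 CPM in mdx vehicle and 3442, 5497 and 10278 CPM in mdx GTx-026. The 3 groups overlapped, with mdx vehicle library 1 the lowest and mdx GTx-026 library 3 the highest of all. Myh2 was the rarest of the 3 in 8 libraries, at 2366, 3232 and 4759 CPM in wildtype vehicle, 174, 1874 and 1769.7 CPM in mdx vehicle and 785, 2191 and 4777 CPM in mdx GTx-026. In wildtype vehicle library 2 it was slightly above Myh1. Every mdx vehicle library was below every wildtype library for Myh2, and the treated libraries ran from within the mdx vehicle range to just above the highest wildtype library.

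The balance of the fast myosins, their shares of the summed Myh1, Myh2 and Myh4 signal within a library, does not depend on scaling between libraries. Myh4 held 84.6, 92.1 and 86.3% of that sum in wildtype vehicle, 96.3, 87.2 and 84.1% in mdx vehicle and 93.9, 83.3 and 64.9% in mdx GTx-026. The group means were 87.7% ± 3.94 (SD, n = 3), 89.2% ± 6.33 (SD, n = 3) and 80.7% ± 14.7 (SD, n = 3). The treated libraries held both the second highest and the lowest Myh4 share of the 9. Myh1 held 11.3, 3.76 and 7.58% in wildtype vehicle, 3.21, 9.21 and 12.4% in mdx vehicle and 4.96, 11.9 and 23.9% in mdx GTx-026. Myh2 held 4.06, 4.11 and 6.14%, 0.492, 3.54 and 3.46% and 1.13, 4.75 and 11.1% in the same order of groups. For Myh2 alone, the mdx vehicle and wildtype shares did not overlap, with means of 2.50% ± 1.74 (SD, n = 3) against 4.77% ± 1.18 (SD, n = 3). That difference of -2.27 percentage points had p = 0.1 in a two-sided exact permutation test, the smallest p that 3 against 3 libraries can give, and 0.8 after Benjamini-Hochberg adjustment over the 9 tests of 3 myosins and 3 pairs of groups. It was -1.27 points without mdx vehicle library 1. The Myh4 share difference of the same pair turned from 1.54 to -2.002 points without that library, and the Myh1 difference went from 0.734 to 3.27 points. The other 8 differences in share had exact permutation p-values of 0.4 to 0.8, and none of the 9 could have passed 0.05. Under treatment the mean Myh1 share was 5.33 points above and the mean Myh4 share -8.50 points from that of mdx vehicle, with overlapping libraries for both. These differences were 2.79 and -4.96 points without mdx vehicle library 1. Library mdx GTx-026 3 carried much of the distance from wildtype: without it the Myh4 difference between mdx GTx-026 and wildtype vehicle turned from -6.96 to 0.935 points and the Myh2 difference from 0.901 to -1.83 points.

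**Figure D1:**
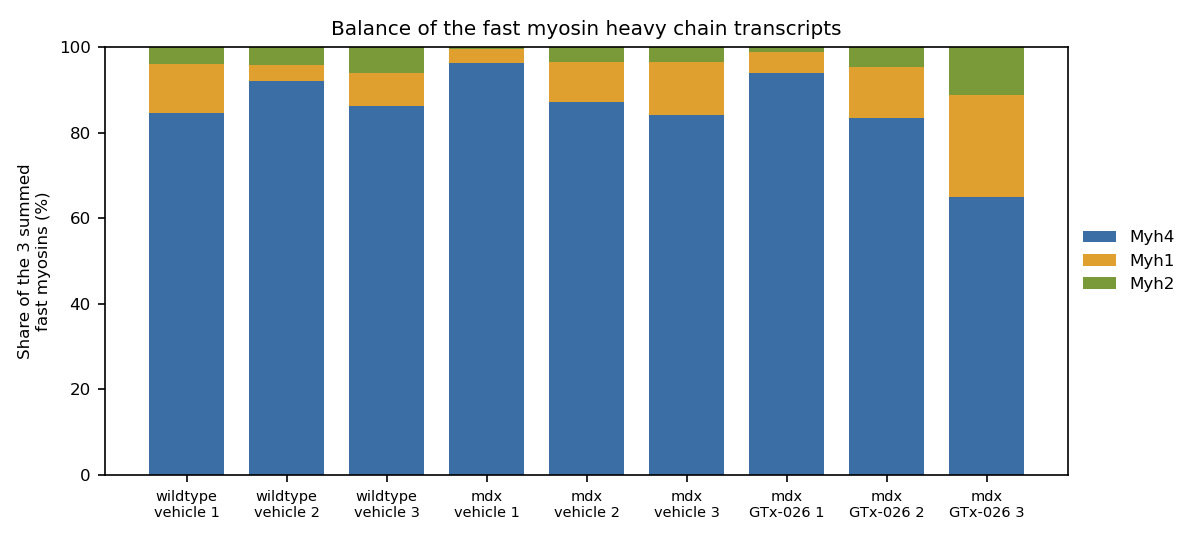
Stacked bars give the share (%) of Myh4, Myh1 and Myh2 in their summed signal for each of the 9 libraries. Myh4 holds 64.9% to 96.3% of the sum, with the highest share in mdx vehicle 1 and the lowest in mdx GTx-026 3.

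Myh1 and Myh2 were both lowest in mdx vehicle 1 and both highest in mdx GTx-026 3, where Myh4 was at its lowest. Relative to the wildtype mean on the log2 scale, mdx vehicle library 1 was at -2.10 for Myh1 and -4.24 for Myh2, but at -0.86 for Myh4. Library mdx GTx-026 3 was at 1.08 for Myh1 and 0.53 for Myh2, against -1.15 for Myh4. Over the 9 libraries, Pearson's r between the log2 levels of Myh1 and Myh2 was 0.84 (exact permutation p = 0.0116, adjusted over 3 pairs p = 0.0347) and Spearman's rho was 0.58 (exact permutation p = 0.108, adjusted p = 0.324). Without the 2 libraries farthest from the median of Myh1, mdx vehicle 1 and mdx GTx-026 3, r was 0.26, so the relation rests on those libraries. Taking each library as its deviation from its group mean, r was 0.89. Myh1 and Myh2 share more sequence with each other than with Myh4, and the part of shared sequence in their r was not tested. Myh1 and Myh4 had r = -0.13 (exact permutation p = 0.750, adjusted p = 0.750) and rho = -0.27 (exact permutation p = 0.493, adjusted p = 0.678), with r = -0.65 without the same 2 libraries. Myh2 and Myh4 had r = 0.20 (exact permutation p = 0.625, adjusted p = 0.750) and rho = 0.17 (exact permutation p = 0.678, adjusted p = 0.678), with r = 0.07 without mdx vehicle 1 and mdx GTx-026 1. The ratio of Myh1 to Myh2 reads was 2.78, 0.915 and 1.24 in wildtype vehicle, 6.53, 2.60 and 3.59 in mdx vehicle and 4.38, 2.51 and 2.15 in mdx GTx-026. The ratio was highest in mdx vehicle 1 and lowest in wildtype vehicle 2.

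The slow-fibre counterparts are 10 genes such as the slow myosin Myh7 that build the same structures in slow-twitch fibres. As a median over the list, they were further apart among the wildtype libraries than any fast myosin. Their median log2 difference from the wildtype mean was -1.43, 1.47 and -0.03 in wildtype vehicle, -3.03, 1.40 and 0.63 in mdx vehicle and -1.67, -0.43 and 1.75 in mdx GTx-026. Their summed level was 3684, 12742 and 6259 CPM, 842, 11397 and 8683 CPM and 2729.9, 4746 and 18582 CPM in the same order. The lowest value was again that of mdx vehicle 1 and the highest that of mdx GTx-026 3, the libraries at the extremes of Myh1. Myh7 itself was at 316, 3911 and 1126 CPM in wildtype vehicle, 65.1, 3119 and 2468 CPM in mdx vehicle and 341, 741 and 5871 CPM in mdx GTx-026. It held from 0.184% of the 4 summed myosins in mdx vehicle 1 to 12.0% in mdx GTx-026 3. The part of the slow-fibre genes in the balance of the fast myosins was not tested.

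**Figure D2:**
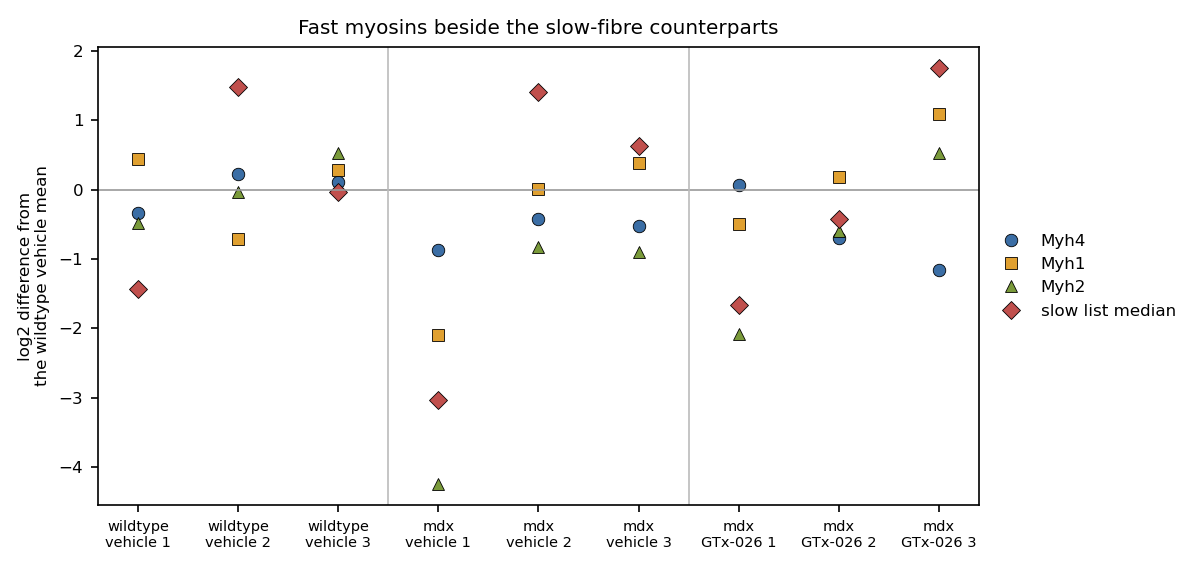
Each point is the log2 difference of a library from the wildtype vehicle mean for Myh4, Myh1 and Myh2, with the median of the 10 slow-fibre counterparts as diamonds. In mdx vehicle 1 the slow median (-3.03), Myh2 (-4.24) and Myh1 (-2.10) lie well below Myh4 (-0.86), and in mdx GTx-026 3 the slow median (1.75) and Myh1 (1.08) lie above Myh4 (-1.15).

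The genes most like each myosin over the 9 libraries, by Pearson's r of log2 levels among 5544 other genes with a mean of at least 20 CPM, are listed with their r. For Myh4 they were Ckm (0.99), 5730409E04Rik (0.98), Ank1 (0.97), Gpr180 (0.96), Camk2a (0.96). Ckm encodes the muscle creatine kinase that buffers ATP, and Camk2a a calcium-dependent kinase. For Myh2 they were Ptgr2 (0.98), Acadl (0.98), Adck3 (0.98), Ankrd2 (0.97), Acadm (0.97). Acadl and Acadm encode acyl-CoA dehydrogenases of fatty acid oxidation, and Ankrd2 a stretch-responsive muscle protein. For Myh1 they were Lims2 (0.96), Hspb7 (0.95), Tpm2 (0.95), Aph1a (0.94), Lmcd1 (0.93), with Tpm2 encoding beta-tropomyosin and Hspb7 a small heat-shock protein. Among the 10 fast-fibre genes, Myh4 was most like Actn3 (r = 0.97), Mybpc2 (0.94) and Tnnt3 (0.93) over the same 9 libraries. These values share their libraries and scaling and are a description only.

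Of the fast light chains, Mylpf, the regulatory light chain (chr7:127208848-127214288), was the most even of the 10 genes in wildtype muscle, at 9891, 9709 and 10024 CPM. It was at 7375, 11930.2 and 10807 CPM in mdx vehicle and 15621, 8959 and 7368 CPM in mdx GTx-026, so both mdx groups reached below and above wildtype. Myl1, the essential light chain, stood at 8103, 8820.4 and 10168 CPM in wildtype vehicle, 6948, 8726 and 7652 CPM in mdx vehicle and 10249, 8550.2 and 6288 CPM in mdx GTx-026. The groups overlapped for the summed Myl1 signal, with its lowest value in mdx GTx-026 3.

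The summed Myl1 level hid a shift between its sequence records. Myl1 makes a long and a short light chain from separate start sites, and the table lists it as 6 records, numbered here by their mean level. Record 4 held 7.84, 7.61 and 7.91% of the Myl1 signal in wildtype vehicle, 28.7, 30.8 and 15.4% in mdx vehicle and 26.9, 17.8 and 26.3% in mdx GTx-026. Every mdx library, treated or not, was above every wildtype library. In reads, record 4 was at 635, 671 and 804 CPM in wildtype vehicle, 1991, 2690.1 and 1176 CPM in mdx vehicle and 2758, 1519.8 and 1651 CPM in mdx GTx-026. Record 5 was also separate in share, at 7.04, 6.97 and 6.96%, 10.1, 10.8 and 10.5% and 11.0, 9.16 and 9.49% in the same order. In CPM its groups overlapped, at 570, 615 and 708 in wildtype vehicle and 700, 941 and 805 in mdx vehicle. The mdx GTx-026 libraries were at 1131, 783 and 597 CPM for record 5. A share can also rise where other records of the gene fall. Records 4 and 5 were singled out after their values were seen. Together they held 14.9, 14.6 and 14.9% in wildtype vehicle, 38.7, 41.6 and 25.9% in mdx vehicle and 37.9, 26.9 and 35.8% in mdx GTx-026. The other 4 records summed to 6897, 7534 and 8655 CPM, 4257, 5095 and 5670.3 CPM and 6359.7, 6247 and 4040.1 CPM. All 6 mdx libraries were below the lowest wildtype library for that sum. Record 4 did not move in step with record 5: their ratio was 1.11, 1.09 and 1.14 in wildtype vehicle, 2.84, 2.86 and 1.46 in mdx vehicle and 2.44, 1.94 and 2.77 in mdx GTx-026.

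With each record fitted on its own in limma, and Benjamini-Hochberg adjustment over all 46007 records tested, record 4 of Myl1 had a log2 difference of 1.40 (SE 0.35) between mdx vehicle and wildtype vehicle, with an adjusted p of 0.172. Between mdx GTx-026 and wildtype vehicle it was 1.44 (SE 0.35), with a limma adjusted p of 0.092. Record 1, the most abundant, had -0.67 (SE 0.28, limma adjusted p = 0.389) and -0.54 (SE 0.28, limma adjusted p = 0.513) in the same comparisons. No record of Myl1, and none of the 67 records of the 10 genes, passed the threshold between mdx vehicle and wildtype vehicle (0.28% of all records did) or between mdx GTx-026 and wildtype vehicle (1.19% did). In the first of these, 6 of the 67 had an unadjusted limma p under 0.05, against 12% of all tested records. In 27 of the 67, 19 of them records of Tnnt3 and 4 of Myl1, the mdx vehicle libraries were all below wildtype (9.3% of all records). In 1, record 4 of Myl1, they were all above (6.84%). For mdx GTx-026 against wildtype vehicle these numbers were 4 (9.2%), all of them Myl1 records, and again 1 (10.3%). The authors' deposited table gives, on the deposited scaling, wildtype over mdx vehicle ratios of 1.41 for record 1 and 0.316 for record 4. The authors' unadjusted p-values for them were 0.0103 and 0.0928. Which light chain each record belongs to is not given in the sources used here, and 16.0% of the 50-base words of Myl1 also occur in the pseudogene Mylf-ps. RefSeq GRCm38.p6 places Myl1 on chromosome 1, at chr1:66924295-66947932 on the minus strand, with 4 transcripts. The developmental light chain Myl4 was at 12.5, 16.7 and 14.7 CPM in wildtype vehicle, 43.1, 47.5 and 168 CPM in mdx vehicle and 99.9, 148 and 79.0 CPM in mdx GTx-026, and its part in the record shares was not tested.

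**Figure D3:**
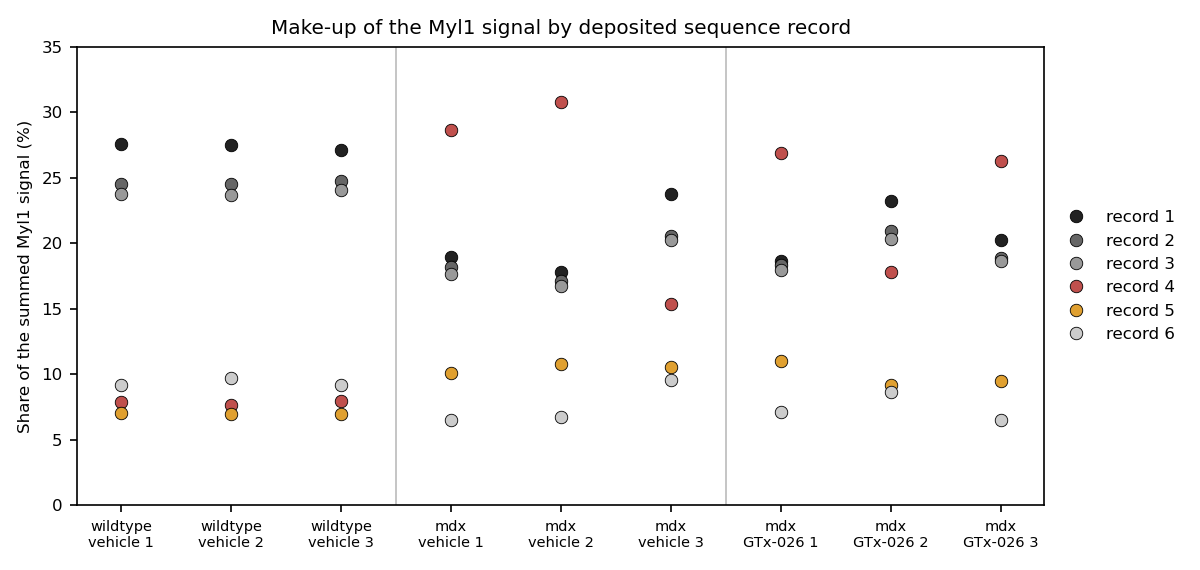
Points give the share (%) of each of the 6 deposited Myl1 records in the summed Myl1 signal of each library. Record 4 lies at 7.61% to 7.91% in the wildtype libraries and at 15.4% to 30.8% in the 6 mdx libraries, while records 1 to 3 are lower in every mdx library than in every wildtype library.

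Of the fast troponin genes, Tnni2 (chr7:142441816-142444410) and Tnnt3 (chr7:142498771-142516213) lie close together on chromosome 7, and Tnnc2 lies at chr2:164777161-164779734 on the minus strand. Tnnc2, the calcium-binding subunit, was at 10166, 11091 and 12029 CPM in wildtype vehicle, 8008, 9017 and 7558 CPM in mdx vehicle and 12025, 10185 and 6935 CPM in mdx GTx-026. Tnnt3, the subunit that binds tropomyosin, was at 17826, 19607 and 21690.5 CPM, 14679, 16655 and 14801 CPM and 21855, 16931 and 12841 CPM in the same order. For both, all mdx vehicle libraries were below all wildtype libraries, and the treated libraries ran from below the lowest mdx vehicle library to the top of the wildtype range or, for Tnnt3, just above it. Tnni2, the inhibitory subunit, was at 8569, 8612 and 9719.8 CPM in wildtype vehicle, 6246, 9244 and 7056 CPM in mdx vehicle and 12411, 8697 and 6846 CPM in mdx GTx-026. Its mdx vehicle library 2 lay within the wildtype range, and mdx GTx-026 library 1 was the highest of the 9. Tnnt3, a gene known for extensive alternative splicing, is listed as 49 records. All 49 had a negative log2 difference between mdx vehicle and wildtype vehicle, from -0.61 to -0.25, and a negative one between mdx GTx-026 and wildtype vehicle, from -0.62 to -0.12. The largest range of a Tnnt3 record share over the 9 libraries was 3.26 percentage points, for record 1, from 4.87 to 8.13%. Record 19 ran from 1.81 to 3.67%, and for both records the groups overlapped. Each Tnnt3 record holds a small share, so these ranges in points are not set against those of Myl1. Whether the 49 records count the same reads was not tested, and they are not taken as independent.

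Actn3, the alpha-actinin of fast glycolytic fibres (chr19:4861216-4877909), was at 11091, 14453 and 13516 CPM in wildtype vehicle, 7467, 9109 and 8509 CPM in mdx vehicle and 12221, 6835 and 4972 CPM in mdx GTx-026. All mdx vehicle libraries were below all wildtype libraries, and of the treated libraries only mdx GTx-026 1 reached the wildtype range. Mybpc2, the fast myosin-binding protein C (chr7:44501699-44524715, minus strand), was at 5382, 8434 and 7401 CPM in wildtype vehicle, 5103, 6207 and 6017 CPM in mdx vehicle and 8852, 5409 and 3957 CPM in mdx GTx-026, with overlapping groups. Within the treated group, mdx GTx-026 1 was the highest and mdx GTx-026 3 the lowest for 8 genes: Myh4, Mylpf, Myl1, Tnnt3, Tnni2, Tnnc2, Actn3 and Mybpc2. Myh1 and Myh2 had the opposite arrangement, lowest in mdx GTx-026 1 and highest in mdx GTx-026 3. The SD of the treated libraries was larger than that of mdx vehicle for all 10 genes, for example for Myh4, with means of 43820.1 ± 19231 against 41078 ± 6276 CPM (SD, n = 3), and for Actn3, with 8009 ± 3764 against 8361 ± 831 CPM (SD, n = 3). The 10 genes together took 13.3, 13.9 and 14.7% of the summed signal of the wildtype vehicle libraries, 11.9, 11.7 and 11.0% in mdx vehicle and 14.5, 12.0 and 9.87% in mdx GTx-026. If a read is listed under several records of a gene, it enters these sums more than once.

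**Figure D4:**
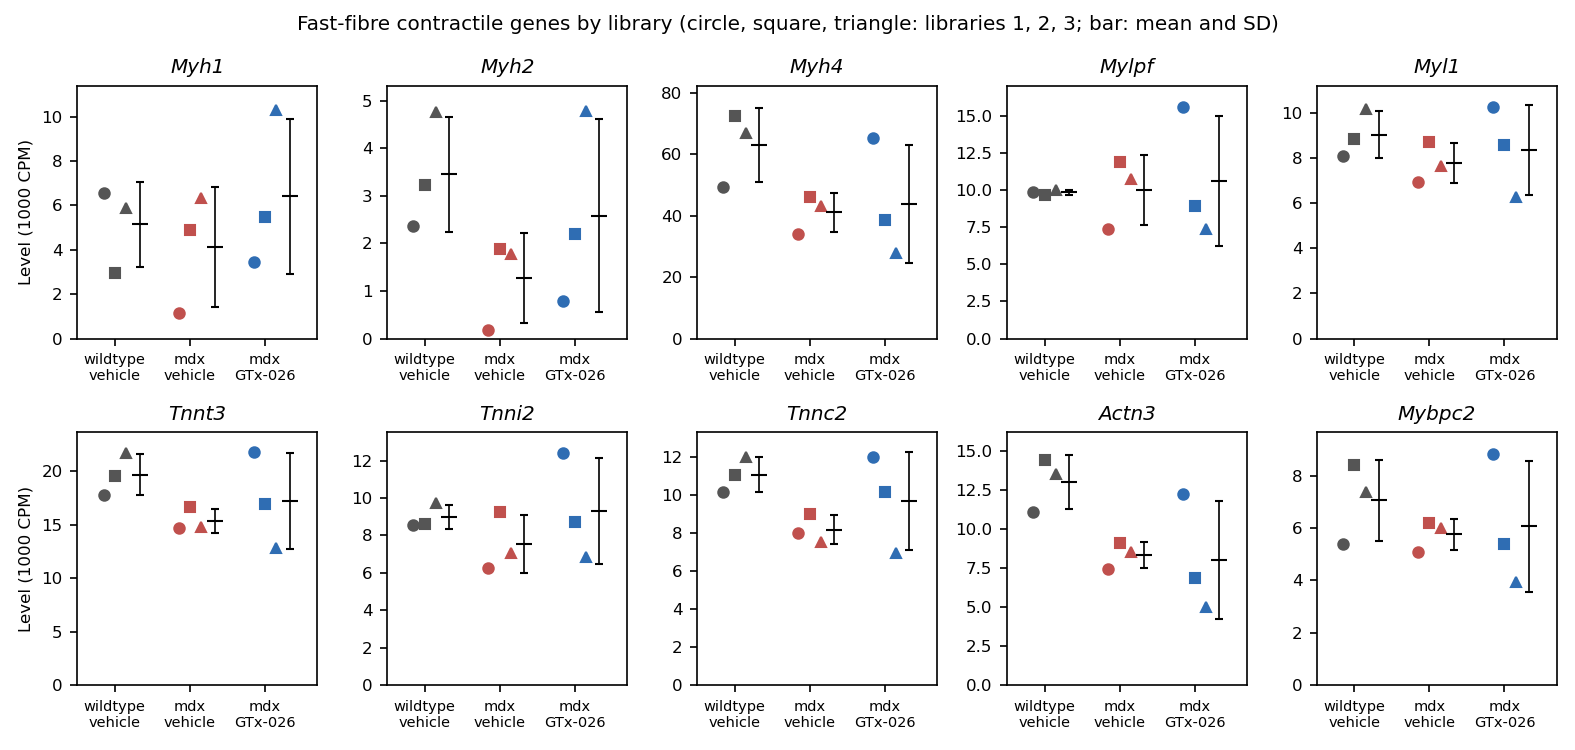
Points give the level (in units of 1000 CPM) of the 10 fast-fibre genes in each library, by group, with the group mean and SD as a bar. For Myh2, Myh4, Tnnt3, Tnnc2 and Actn3 the 3 mdx vehicle points lie below the 3 wildtype points, and the SD of the treated group is the largest of the 3 groups for all 10 genes.

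The comparison of mdx vehicle with wildtype vehicle asks how the fast contractile programme of dystrophic muscle differs without treatment. In the limma fit over all 15372 tested genes, all 10 genes had a negative log2 difference, as did 48.9% of all tested genes, although the Mylpf value was near 0 (-0.01), its mean CPM was 1.02 times wildtype, and it was 0.18 with the deposited scaling. None of the 10 passed the adjusted threshold of 0.05, where 0.338% of all tested genes did, and none had an unadjusted limma p under 0.05, where 12.7% did. In 5 of 10 genes, Myh2, Myh4, Tnnt3, Tnnc2 and Actn3, the mdx vehicle libraries were all below the wildtype libraries, against 8.49% of all tested genes. With the deposited scaling this held for 3 of them, Myh2, Myh4 and Actn3. The median log2 difference of the 10 was -0.40, against 0.01 over all tested genes. With the deposited scaling these medians were -0.21 and 0.16. The median of the 10 without mdx vehicle library 1 was -0.26, with 8 negative and 2 positive values.

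Myh2 had the largest difference of the 10. Its mean was 0.369 times that of wildtype, from 3453 ± 1212 to 1273 ± 953 CPM (SD, n = 3), with a log2 difference of -1.99 (SE 0.92, 95% interval -4.05 to 0.07) and a limma adjusted p of 0.409. Without mdx vehicle library 1, by far the lowest of its group for Myh2, the log2 difference was -0.87. Actn3 was 0.642 times wildtype, with a log2 difference of -0.63 (95% interval -1.70 to 0.43) and a limma adjusted p of 0.596. Myh4 was 0.653 times wildtype (-0.61, 95% interval -2.61 to 1.39, limma adjusted p = 0.791). Without mdx vehicle library 1 the log2 differences were -0.56 for Actn3 and -0.48 for Myh4. Myh1 had -0.57 (95% interval -2.11 to 0.98), which turned to 0.20 without that library, so its direction rests on it. The remaining log2 differences were -0.44 for Tnnc2, -0.36 for Tnnt3, -0.27 for Mybpc2, -0.27 for Tnni2 and -0.22 for Myl1, with limma adjusted p-values of 0.685 to 0.840. Tnni2 was at -0.15 and Myl1 at -0.14 without mdx vehicle library 1. Other single libraries moved Mybpc2, which was at -0.46 without wildtype vehicle 1 and -0.13 without wildtype vehicle 2. The intervals are wide: that of Tnnt3 ran from -1.58 to 0.87, which holds both no difference and a difference of more than 1 log2 unit. Their width comes from the spread that limma takes from other genes as well as from the libraries. For the single record of Myh4, the SE was 0.89 in this fit but 0.57 with records fitted one by one, on the same values.

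In the authors' deposited table, whose p-values are unadjusted and given per record, the records of these genes with p under 0.05 between wildtype and mdx vehicle numbered 6 of 67, namely 5 of the 6 records of Myl1 and the single record of Actn3. This held for 6.01% of all its records. The authors' deposited table gives wildtype over mdx vehicle ratios of 1.37 for Actn3, 1.36 for Myh4 and 2.59 for Myh2, with unadjusted p-values of 0.00407, 0.0584 and 0.0649. These ratios are of means on the deposited scaling, whereas the limma fit used rescaled log2 levels. The limma p of Actn3 (unadjusted 0.211) was larger, on those rescaled levels and in a model that pools the spread of all 3 groups and takes in that of other genes.

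The comparison of mdx GTx-026 with mdx vehicle asks what the drug does in dystrophic muscle. It showed no difference in these genes larger than the spread between libraries. By limma, 0 of 10 genes passed the adjusted threshold (0.013% of all tested genes did), 0 had an unadjusted p under 0.05 (3.17% did), and in 0 of 10 were the groups separate (6.8% of all tested genes). The log2 difference was positive for 8 genes and negative (as in 48.9% of all tested genes) for Actn3 (-0.16) and Mybpc2 (-0.00), and the median was 0.11 against 0.00 over all tested genes. Myh2 had 1.28 (SE 0.92, 95% interval -0.79 to 3.34) and Myh1 0.82 (SE 0.69, 95% interval -0.72 to 2.37). Their values without mdx vehicle library 1 were 0.14 and 0.05, so most of both differences rests on that library. In the same leave-out Tnni2 was at 0.15 and Actn3 at -0.25. The median of the 10 was 0.02 without it, with 5 negative and 5 positive values, and -0.07 without mdx GTx-026 1. Myh4 had 0.02 (95% interval -1.98 to 2.01), which does not exclude a large difference in either direction. The others ran from 0.04 for Mylpf to 0.29 for Tnni2, with Tnnc2 at 0.21, Tnnt3 at 0.13 and Myl1 at 0.08. All 10 had a limma adjusted p of 0.9996. Several of these signs turned when 1 library was left out: without mdx GTx-026 1, Tnnt3 was at -0.06, Myl1 at -0.08, Mylpf at -0.28 and Myh4 at -0.32. By the unadjusted p-values of the authors' deposited table, a single record of the 67, of Tnnt3, was under 0.05 in this comparison, against 1.94% of all records.

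Between mdx GTx-026 and wildtype vehicle, which shares its libraries with the comparisons above, 7 genes had negative (49.6% of all tested genes did) and 3 positive log2 differences, with a median of -0.22 against 0.00 over all tested genes. By limma, 0 of 10 passed the adjusted threshold (1.48% of all tested genes did), 0 had an unadjusted p under 0.05 (12.5% did), and 0 of 10 were separate between the groups (20.8% of all tested genes). With the deposited scaling 1 gene, Actn3, was separate. With all libraries, Actn3 was the gene farthest from wildtype, with a mean of 8009 ± 3764 against 13019.6 ± 1735 CPM (SD, n = 3) and a log2 difference of -0.79 (SE 0.47, 95% interval -1.85 to 0.27, limma adjusted p = 0.57). Myh2 had -0.72, Myh4 -0.59, Mybpc2 -0.28, Tnnc2 -0.23, Tnnt3 -0.22 and Myl1 -0.13. Myh1 was at 0.25, Mylpf at 0.03 and Tnni2 at 0.01. Without mdx GTx-026 library 3 the Myh1 value was -0.16, the Actn3 value -0.50 and the Myh2 value -1.34, so that Myh2 was then farther from wildtype than Actn3. The median of the 10 was then -0.02, and it was -0.35 without mdx GTx-026 library 1. By the unadjusted p-values of the authors' deposited table, a single record of the 67, record 4 of Myl1, was under 0.05, against 9.32% of all records.

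**Figure D5:**
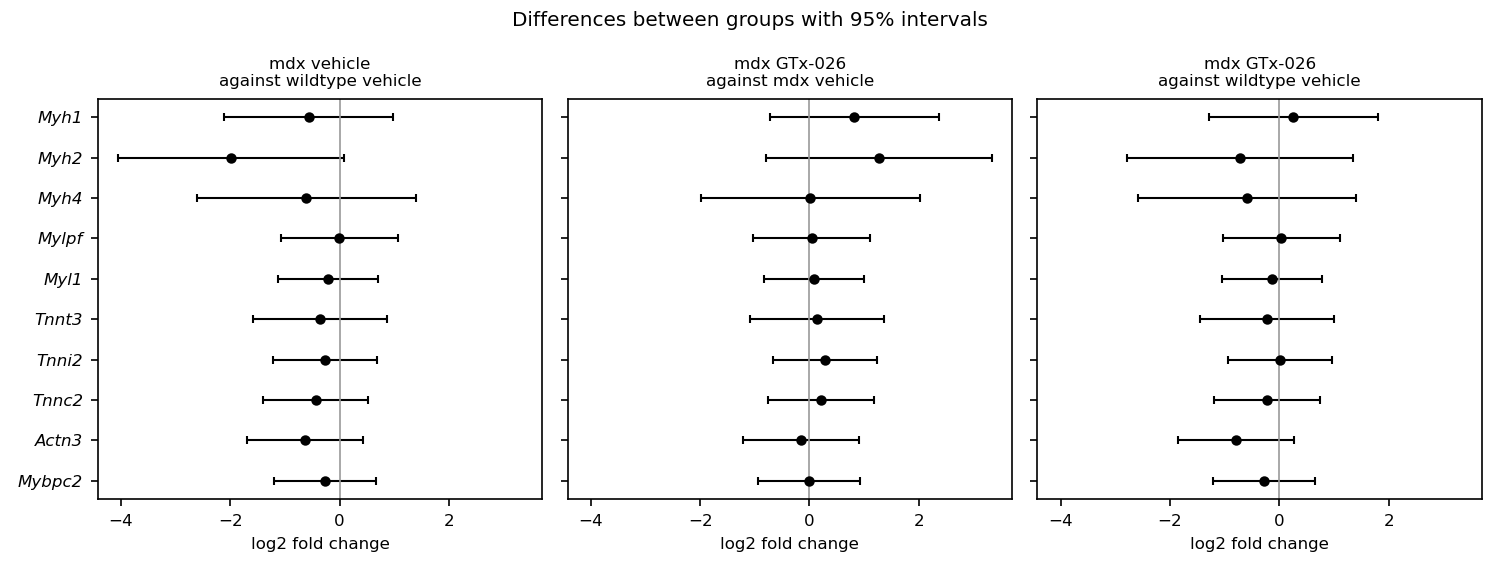
Points give the limma log2 fold change of each fast-fibre gene in the 3 comparisons, on the log2(CPM + 1) scale, with 95% intervals as bars. Every interval includes 0, and the widest are those of Myh2 and Myh4.

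Per length, the order of levels can be given for the 5 genes listed as a single record, with the transcript lengths of the GENCODE annotation. Tnnc2 was the highest, at 15851 ± 1330.2 CPM per kb in wildtype vehicle (SD, n = 3), 11706 ± 1067 in mdx vehicle and 13879 ± 3682 in mdx GTx-026. Myh4 followed with 10452 ± 2012, 6828 ± 1043 and 7284 ± 3197 CPM per kb. The lowest Tnnc2 library of wildtype (14524) was above the highest Myh4 library of wildtype (12041). In mdx GTx-026 the ranges overlapped, at 9907 to 17179 for Tnnc2 and 4633 to 10834 for Myh4. Within every library of each group, however, Tnnc2 was above Myh4. Actn3 came next at 4509.7 ± 601, 2896 ± 288 and 2774 ± 1304 CPM per kb. Myh1, at 866 ± 324, 694 ± 453 and 1079 ± 591 CPM per kb, and Myh2, at 568 ± 199, 209 ± 157 and 425 ± 333 CPM per kb, came last by group mean. Their ranges overlapped in all 3 groups. Within libraries, Myh1 was above Myh2 in all but wildtype vehicle 2. The other 5 genes have several records that can count the same read more than once, and their levels are not set against these.

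The other genes of the fast programme were described by list. Of 15 companions of the fast fibre, which supply its calcium handling and energy, 13 had a negative and 2 a positive log2 difference between mdx vehicle and wildtype vehicle, with a median of -0.23 (-0.13 without mdx vehicle library 1), and none passed the limma threshold. The calcium pump Atp2a1 was at -0.17, the creatine kinase Ckm at -0.52 with separate groups, and the calcium buffer Pvalb at 0.09. With treatment against mdx vehicle 7 were negative and 8 positive, with a median of 0.06 (-0.08 without mdx vehicle library 1, -0.20 without mdx GTx-026 1) and none past the threshold. With treatment against wildtype vehicle 13 were negative, and 1, Mybph, passed: it encodes myosin-binding protein H. Mybph was at 1144, 721 and 849 CPM in wildtype vehicle, 621, 546 and 548 CPM in mdx vehicle and 393, 311 and 126 CPM in mdx GTx-026. It fell by 1.83 on the log2 scale (SE 0.37, limma adjusted p = 0.0482) between wildtype vehicle and mdx GTx-026, and none of its libraries overlapped in any of the 3 comparisons. Leaving out each library in turn gave Mybph a limma adjusted p of 0.0421 to 0.165, with the lowest without mdx vehicle 1, the single leave-out in which it stayed under 0.05. Without mdx GTx-026 3 its log2 difference was -1.34.

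Of 20 regulators of the fast programme, such as the transcription factor Tbx15 and the Maf family, 17 were measured. Between mdx vehicle and wildtype vehicle 10 were negative and 7 positive (median -0.13), between mdx GTx-026 and mdx vehicle 7 and 10 (median 0.08), and between mdx GTx-026 and wildtype vehicle 9 and 8 (median -0.08), none past the limma threshold. Without mdx vehicle library 1 the first of these medians was 0.09 and the second -0.09. The list was not split by the direction in which a factor acts, so its counts and medians give no direction for the fast programme. In mdx vehicle against wildtype vehicle, 4 regulators were separate and lower (8.49% of all tested genes were) and 1 separate and higher. In mdx GTx-026 against wildtype vehicle, 3 were separate and lower and 3 separate and higher (20.8% of all tested genes in either direction). The most abundant, Mef2c, Tead1 and Tbx15, had -0.09, -0.39 and 0.11 between mdx vehicle and wildtype vehicle, and 0.09, -0.02 and 0.19 without mdx vehicle library 1. Tbx15, a factor needed for glycolytic fibres, was at 139, 172 and 217 CPM in wildtype vehicle, 165, 175 and 224 CPM in mdx vehicle and 320.1, 252 and 268 CPM in mdx GTx-026. All treated libraries were above all others, with log2 differences of 0.58 against mdx vehicle (limma adjusted p = 0.9996) and 0.68 against wildtype vehicle (limma adjusted p = 0.153).

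The slow-fibre counterparts had 8 negative and 2 positive log2 differences between mdx vehicle and wildtype vehicle (median -0.38), 2 and 8 between mdx GTx-026 and mdx vehicle (median 0.24), and 6 and 4 between mdx GTx-026 and wildtype vehicle (median -0.08), none past the limma threshold. These directions rest on single libraries. Without mdx vehicle library 1 all 10 were positive in the first comparison (median 1.03) and 9 of 10 negative in the second (median -1.27). Without mdx GTx-026 library 3 the median of the second was -0.75 and that of the third -1.11. Between mdx vehicle and wildtype vehicle, Myh7 was at -0.49, Actn2 at -0.95 and Mybpc1 at -0.66 with all libraries, and at 1.31, 0.09 and 0.02 without mdx vehicle library 1. The 12 sarcomere genes of all fibres, among them Acta1 (-0.29), Tpm1 (-0.22) and Ttn (-0.15), had 11 negative and 1 positive values in that comparison (median -0.33). Against mdx vehicle, mdx GTx-026 had 1 negative and 11 positive (median 0.35), and against wildtype vehicle 9 and 3 (median -0.08), none past the threshold. Without mdx vehicle library 1 the median over the genes of all fibres was -0.11 against wildtype vehicle and 0.07 for mdx GTx-026 against mdx vehicle, with Acta1 at -0.11, Tpm1 at -0.27 and Ttn at 0.16 in the former. The same leave-out left the fast-fibre median at -0.26. Of the developmental and other striated forms 6 of 8 were measured, with 3 negative and 3 positive in mdx vehicle against wildtype vehicle (Actc1 -0.40, Myh8 -0.38, Myh3 0.44, and -0.68, 0.34 and 1.31 without mdx vehicle library 1), 0 and 6 in mdx GTx-026 against mdx vehicle, and 3 and 3 in mdx GTx-026 against wildtype vehicle. In the last comparison 1, Myl4, rose, by 2.78 on the log2 scale (SE 0.46, limma adjusted p = 0.0205). Leaving out any single library of these 2 groups gave Myl4 a log2 difference of 2.53 to 2.98 and a limma adjusted p of 0.0607 to 0.0947.

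Markers of the tissue and of other cells were measured in the same libraries. The 6 skeletal muscle markers were all present, and their summed level was 87636, 108760.0 and 110240.0 CPM in wildtype vehicle, 61059, 89176 and 89196 CPM in mdx vehicle, where all 6 had negative log2 differences, and 107567, 81016 and 76978 CPM in mdx GTx-026. Of 10 macrophage markers 9 were measured, all 9 with positive log2 differences in both mdx groups against wildtype. By limma, 1 passed the adjusted threshold between mdx vehicle and wildtype vehicle, Lgals3, and 2 between mdx GTx-026 and wildtype vehicle, Lgals3 and C1qc. These numbers ran from 0 to 4 and from 0 to 6 when each library was left out in turn. Their sum was 69.1, 77.5 and 30.8 CPM in wildtype vehicle, 809, 98.7 and 357 CPM in mdx vehicle and 278, 262 and 377 CPM in mdx GTx-026. The highest sum was in mdx vehicle 1, the library lowest for Myh1, Myh2 and Myh4 within its group. Of its 809 CPM, Gpnmb made up 422 and Lgals3 189. By the median log2 difference of the 9 markers from the wildtype mean, mdx vehicle 1 (1.71) was not the highest. It was below mdx vehicle 3 (2.12), mdx GTx-026 1 (2.06) and mdx GTx-026 3 (1.99), and above mdx vehicle 2 (0.50) and mdx GTx-026 2 (1.65). Cd52, the 1 lymphoid marker measured of 9, was highest of all in mdx vehicle 1, at 110.2 CPM against 0.982 to 37.7 CPM in the other libraries. The other marker sums ran from 108 to 1753 CPM for 5 of 6 adipocyte markers, 39.7 to 455 CPM for 5 tenocyte markers, 218 to 785 CPM for 6 markers of fibro-adipogenic progenitors, 90.0 to 209 CPM for 5 endothelial markers, 74.7 to 758 CPM for 4 red blood cell markers and 20.3 to 74.1 CPM for 4 nerve and Schwann cell markers. Of these other marker lists, 1 gene passed the limma threshold in 1 comparison, Pdgfra of the progenitors, higher in mdx GTx-026 than in wildtype vehicle, a number that ran from 0 to 1 when each library was left out. No skeletal muscle marker passed it. The part of these cells in the fast-fibre results was not tested.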

How the data were processed

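The build was GRCm38.p3, per the submitters' processing notes, which name DESeq2 1.6.3, HTSeq 0.6.1p1, TopHat2 2.0.13, SAMtools 0.1.19 and Bowtie2 2.2.4 without their roles. The authors deposited a signal per sequence record (46442 records), which is reads scaled by a single factor per library: values under 10000 lay within 0.1 read of whole multiples of a step in all 9 libraries. The smallest signal above 0 was 10, so these values were not taken as counts and no count model was run. For every pair of groups it also gives, per the file headers, a ratio of group means and an unadjusted p-value, both by the authors. Column names give only the group, so library numbers are names.

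Records above 0 in all 9 libraries were summed per symbol (15372 of 15593 symbols tested), 4 records without a symbol (0.000646% of the signal) were left out, and libraries were rescaled by an unweighted trimmed mean of log ratios (30% on the ratio, 5% on the level; factors 0.874 to 1.30). Tests were two-sided, with limma 3.58.1 (R 4.3.3) on log2(CPM + 1), a scale that understates changes of low genes, with a trended prior variance, all 3 groups in a single model (6 residual and 3.54 prior degrees of freedom) and Benjamini-Hochberg adjustment over all tested genes, threshold 0.05. The fit was tested on simulated data with planted changes larger than any log2 difference of the 10 genes with all libraries. That test thus gives no measure of what the fit can detect among them. Shares were tested by exact permutation (scipy 1.17.1). The genes and lists were chosen with earlier results of these data known. Named genes are the 10 fast-fibre genes, list members past the threshold or otherwise the 3 most abundant of a list, and the 5 genes most like each myosin; Myl1 records and Maf are named beside that rule. Promoter windows came from the RefSeq table (7 of 10 genes matched) and lengths from GENCODE M21. Alternatives covered scaling, pseudocount, filters, record choice, groups in the model, variance trend, coding length, each library left out and, added after seeing the data, records fitted one by one and gene lists without each library.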

Additional observations from a re-analysis of the deposited data

How the results depend on the processing

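No fast-fibre gene passed the adjusted threshold in any of the 19 alternatives, and the count past it was 0 of 10 in every comparison and setting. Over 540 values of single genes the lowest adjusted p was 0.224 between mdx vehicle and wildtype vehicle, 0.837 between mdx GTx-026 and mdx vehicle and 0.275 between mdx GTx-026 and wildtype vehicle. The direction turned in 4, 17 and 7 values of 180 in these comparisons. With the deposited scaling the log2 differences became 0.178 for Mylpf in mdx vehicle against wildtype vehicle, and -0.0557 for Myh4 and -0.0317 for Mylpf in mdx GTx-026 against mdx vehicle. In the last comparison Myh4 was at -0.00393 with median-of-ratios scaling and Mybpc2 at 0.00477 with the highest record only.

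Leaving out each library in turn gave ranges that crossed 0 for these genes. Between mdx vehicle and wildtype vehicle they were -0.15 to 0.20 for Mylpf and -1.04 to 0.20 for Myh1. For mdx GTx-026 against mdx vehicle they were -0.32 to 0.30 for Myh4, -0.28 to 0.27 for Mylpf, -0.0783 to 0.27 for Myl1, -0.31 to 0.27 for Mybpc2, -0.0583 to 0.33 for Tnnt3 and -0.52 to 0.13 for Actn3. For mdx GTx-026 against wildtype vehicle they were -0.21 to 0.21 for Tnni2, -0.16 to 0.63 for Myh1, -0.28 to 0.26 for Mylpf and -0.29 to 0.0583 for Myl1. For Myh2 the difference between mdx vehicle and wildtype vehicle kept its sign, from -2.58 to -0.87. The differences in myosin share between mdx vehicle and wildtype vehicle ran from -1.34 to 3.27 points for Myh1 and -2.002 to 4.09 for Myh4, and between mdx GTx-026 and wildtype vehicle from -1.83 to 3.17 for Myh2 and -13.6 to 0.935 for Myh4. The cause was not tested. Each of the 3 myosins is listed as a single record, so taking the highest record could not change a share. The coding lengths of Myh1, Myh2 and Myh4 are 5826, 5826 and 5817 bases, so dividing by them could hardly change a share either.

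The count of all genes past the threshold depended on the setting. Between mdx vehicle and wildtype vehicle it was 52, with 332 without a filter, 5 with the compared groups only and 5 to 93 when each library was left out. Between mdx GTx-026 and wildtype vehicle it was 227, with 509, 421 and 45 to 374, and between mdx GTx-026 and mdx vehicle 2, with 96, 1 and 0 to 2. Fitted one by one, 129, 549 and 3 records passed in the same order. No paired analysis was possible because the labels give the groups no shared replicate numbers and the columns carry no tie to a sample. Standard errors of 0.41 to 0.92 limit what can be detected. They reflect both the 3 libraries a group and the spread that limma takes from other genes of like level.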
